A study of Mus musculus with 9 samples.

Results

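Transcripts of 10 genes for cytokines and lymphotoxins that B cells can make (Ltb, Lta, Tnf, Il6, Il10, Ebi3, Il12a, Tgfb1, Ccl22 and Lif) were followed from naive B cells to plasma cells (PCs) in mouse spleen. The genes were chosen by name as a functional group, with earlier results of these data known. All 10 were found among the 29995 genes of the expression table without immunoglobulin (Ig) genes. The RNA came from mice of strain B6.Blimp1GFP, genotype B6.Blimp1GFP/+, in which 1 allele of Prdm1, the gene for Blimp1, carries a green fluorescent protein (GFP) reporter, so all cells compared here had that allele. The mice were 12 weeks old and had received 50 µg NP-LPS, a hapten joined to bacterial lipopolysaccharide, in the peritoneum 4 days earlier. Each of 3 populations gave 3 libraries. Naive B cells were B220+ with high surface IgD and bound no NP. NP-specific B cells were B220+ and bound NP, and they lacked IgD, GFP and the plasma cell antigen CD138. PCs also bound NP and lacked IgD, but carried GFP and CD138, with B220 present or absent. Cells with CD4, CD8a, Ter-119 or F4-80 on the surface were left out of every population. Since naive cells came from the immunized mice, no population represents an unimmunized animal. They are called naive cells, NP-specific cells and PCs below.

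Lymphotoxin and tumour necrosis factor (TNF) are related ligands. Lymphotoxin beta anchors lymphotoxin alpha in the membrane, and the heterotrimer engages the lymphotoxin beta receptor on stromal and dendritic cells, by which B cells keep up the follicles of the spleen. Lymphotoxin alpha and TNF also form homotrimers that bind the TNF receptors. IL-6 and LIF signal through the shared chain gp130, and IL-10 restrains macrophages and dendritic cells. Il12a and Ebi3 encode the chains of the heterodimer named IL-35, and each chain also pairs with others, Il12a with Il12b in IL-12 and Ebi3 with Il27 in IL-27. TGF-beta 1 is secreted in a latent form and directs class switching to IgA, while CCL22 attracts cells that carry CCR4.

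The sums of the B cell and plasma cell markers followed the labels, and several markers of other cell types also differed between the populations. The summed abundance of 8 B cell markers, in TPM (transcripts scaled for length and to a fixed sum per library), was 9447 to 9832 in naive cells, 6667 to 7177 in NP-specific cells and 1509 to 1581 in PCs, whereas 6 plasma cell markers summed to 143 to 167, 192 to 206 and 6103 to 7422 TPM. Xbp1 made up most of the latter (means of 119, 156 and 4174 TPM). From naive to NP-specific cells mean Ms4a1 rose from 864 to 1277 TPM, while the other B cell markers fell. Mean Sdc1 fell from 7.02 to 0.943 TPM and Irf4 from 25.1 to 11.1 TPM, while the other plasma cell markers rose. All plasma cell markers were highest in PCs. Estimated reads on genes other than Ig genes totalled 28490300 to 31719400 in naive libraries, 34918400 to 38602300 in NP-specific libraries and 20189900 to 22137400 in PC libraries. Reads of Ig genes are not in these totals, which therefore do not give the depth of sequencing. Ig genes took 57.5 to 62.3% of the listed TPM in PCs and 5.62 to 6.95% in the other libraries. The third PC library stood apart, with 4613 TPM summed over 6 hepatocyte markers against 26.5 and 22.8 in the other PC libraries, and 113 TPM over 7 macrophage and monocyte markers against 34.2 and 46.4. The second NP-specific library held 50.0 TPM over 6 neutrophil markers, against 1.75 and 0.495 in the others of its group. Neutrophil markers in the third PC library summed to 34.7 TPM, against 7.22 and 6.16 in the other PC libraries. The macrophage and monocyte markers summed to 6.22 to 8.43 TPM in naive cells and 52.5 to 70.2 TPM in NP-specific cells, most of it Cd68 (means of 3.98 and 57.6 TPM, and 32.5 TPM in PCs). Of the other 6, Lyz2 averaged 1.08 and 2.14 TPM in naive and NP-specific cells (up to 5.51 in an NP-specific library), Csf1r 0.503 and 0.856, Cd14 0.363 and 0.440, Mertk 0.453 and 0.123, C1qa 0.295 and 0.0257, and C1qb 0.309 and 0. In PCs these 6 averaged 20.9, 1.08, 1.40, 0.331, 2.58 and 5.93 TPM, and each PC library was above each naive library for Lyz2 and C1qb. The 8 T cell markers summed to 56.9 to 65.0, 24.98 to 59.9 and 112 to 146 TPM in naive cells, NP-specific cells and PCs. Lck made up most of it in B cells (53.8 and 37.1 TPM, and 0.564 in PCs) and Cd28 in PCs (126 TPM, and 0.691 and 0.764 in naive and NP-specific cells), and the other 6 had group means of at most 2.73 TPM. Among them Cd3d averaged 2.67, 2.07 and 1.63 TPM, Cd3g 0.130, 0.374 and 1.14 TPM, and Cd3e 0.115, 0.427 and 0.0819 TPM. Dendritic cell markers summed to 280 to 337, 95.8 to 111 and 7.89 to 9.77 TPM, and Ccr7, which lymphocytes also express, averaged 303, 78.7 and 0.297 TPM of this. Flt3 averaged 2.16, 17.7 and 4.83 TPM, and the other 5 had group means of at most 2.57 TPM. Stromal and endothelial markers summed to 134 to 168, 90.6 to 115 and 25.04 to 59.7 TPM, of which Pecam1 averaged 152, 103 and 35.0 TPM, and the other 5 had group means of at most 1.08 TPM. The part of these differences in the results was not tested.

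Ltb, Tnf and Lta lie side by side on chromosome 17 of GRCm38, and each ended lower in PCs than in naive cells. In the GENCODE annotation Ltb occupies chr17:35194439-35196320 on the plus strand, Tnf chr17:35199381-35202007 on the minus strand and Lta chr17:35203165-35205351 on the minus strand, so the cluster spans 10913 bases. Ltb contains the microRNA gene Mir6973a and Lta contains Mir6974, both on the same strand as their host. The 250 bases before the start of each gene in RefSeq (GRCm38.p6) were searched, and are shown because these neighbours fell together in PCs. The starts of Tnf and Lta are the same in both annotations, but RefSeq places that of Ltb 68 bases downstream of the GENCODE start, so for Ltb the 182 bases before the GENCODE start are printed. Capitals mark matches to any of 5 short motifs searched on both strands, namely the NF-kB (kB) consensus, the AP-1 motif TGANTCA, the STAT motif TTCNNNGAA, the Blimp1 core GTGAAAG and the TATA box TATAAA.
Ltb, chr17:35194257-35194438, plus strand: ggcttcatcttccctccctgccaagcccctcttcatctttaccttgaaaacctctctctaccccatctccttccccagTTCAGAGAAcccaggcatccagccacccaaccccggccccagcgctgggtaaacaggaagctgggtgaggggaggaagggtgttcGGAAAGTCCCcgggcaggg
Tnf, chr17:35202008-35202257, minus strand: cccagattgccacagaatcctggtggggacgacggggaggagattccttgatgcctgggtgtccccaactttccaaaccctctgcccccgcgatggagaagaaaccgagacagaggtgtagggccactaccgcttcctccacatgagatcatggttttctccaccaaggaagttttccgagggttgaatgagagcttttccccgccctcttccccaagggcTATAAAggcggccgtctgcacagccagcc
Lta, chr17:35205352-35205601, minus strand: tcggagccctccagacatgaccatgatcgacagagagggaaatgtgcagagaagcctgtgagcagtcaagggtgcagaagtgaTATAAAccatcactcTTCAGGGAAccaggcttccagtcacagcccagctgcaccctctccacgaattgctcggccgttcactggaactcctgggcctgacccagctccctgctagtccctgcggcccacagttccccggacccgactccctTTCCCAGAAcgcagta
The Ltb promoter holds 1 kB match, GGAAAGTCCC, read on the opposite strand from base -87 to -78 counted, like all positions of motifs, from the RefSeq start, and 1 STAT match from -172 to -164. The Lta promoter holds 2 STAT matches and 1 TATA box from -167 to -162, and the Tnf promoter holds a TATA box from -29 to -24. RefSeq gave promoters for 9 of the 10 genes, and Il10 had no entry. Among them the kB consensus occurred in 3 (Ltb, Il6 and Ebi3), the AP-1 motif in 2 (Il6 and Lif), the STAT motif in 2 (Ltb and Lta), the TATA box in 2 (Lta and Tnf) and the Blimp1 core in 0. Of all 32851 mouse promoters of the same length, 3.90% held the kB consensus, 6.75% the AP-1 motif, 7.02% the STAT motif, 12.4% the TATA box and 3.57% the Blimp1 core. These matches describe the letters in the windows and were not tested as sites.

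Ltb was the most abundant of the 10 transcripts in both B cell populations and almost disappeared from PCs. Its abundance was 1427, 1331 and 1296 TPM in the naive libraries, 1078, 885 and 967 TPM in NP-specific cells, and 3.48, 2.50 and 5.92 TPM in PCs. No library of one population overlapped another population. The mean was 1351 ± 67.8 TPM (SD, n = 3) in naive cells, 977 ± 97.1 in NP-specific cells and 3.97 ± 1.76 in PCs, a ratio of 341 between naive cells and PCs. Differences were tested with limma across 12892 genes with at least 1 TPM in at least 3 libraries, and a gene was called at an adjusted p-value under 0.05 with more than a 2-fold change. Log2 changes refer to log2(TPM + 0.5), so for low genes they are smaller than the true ratio. Ltb fell by 8.32 ± 0.24 (SE) on the log2 scale from naive cells to PCs (limma adjusted p = 7.37e-10) and fell by 7.84 ± 0.24 from NP-specific cells to PCs (limma adjusted p = 1.55e-09). Between naive and NP-specific cells the log2 difference was -0.48 ± 0.11 (limma adjusted p = 0.00448), below the 2-fold limit. Without the third PC library the changes in PCs were -8.62 and -8.14. In bulk RNA such as this, fewer cells that express a gene and less RNA per cell cannot be told apart.

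**Figure D1:**
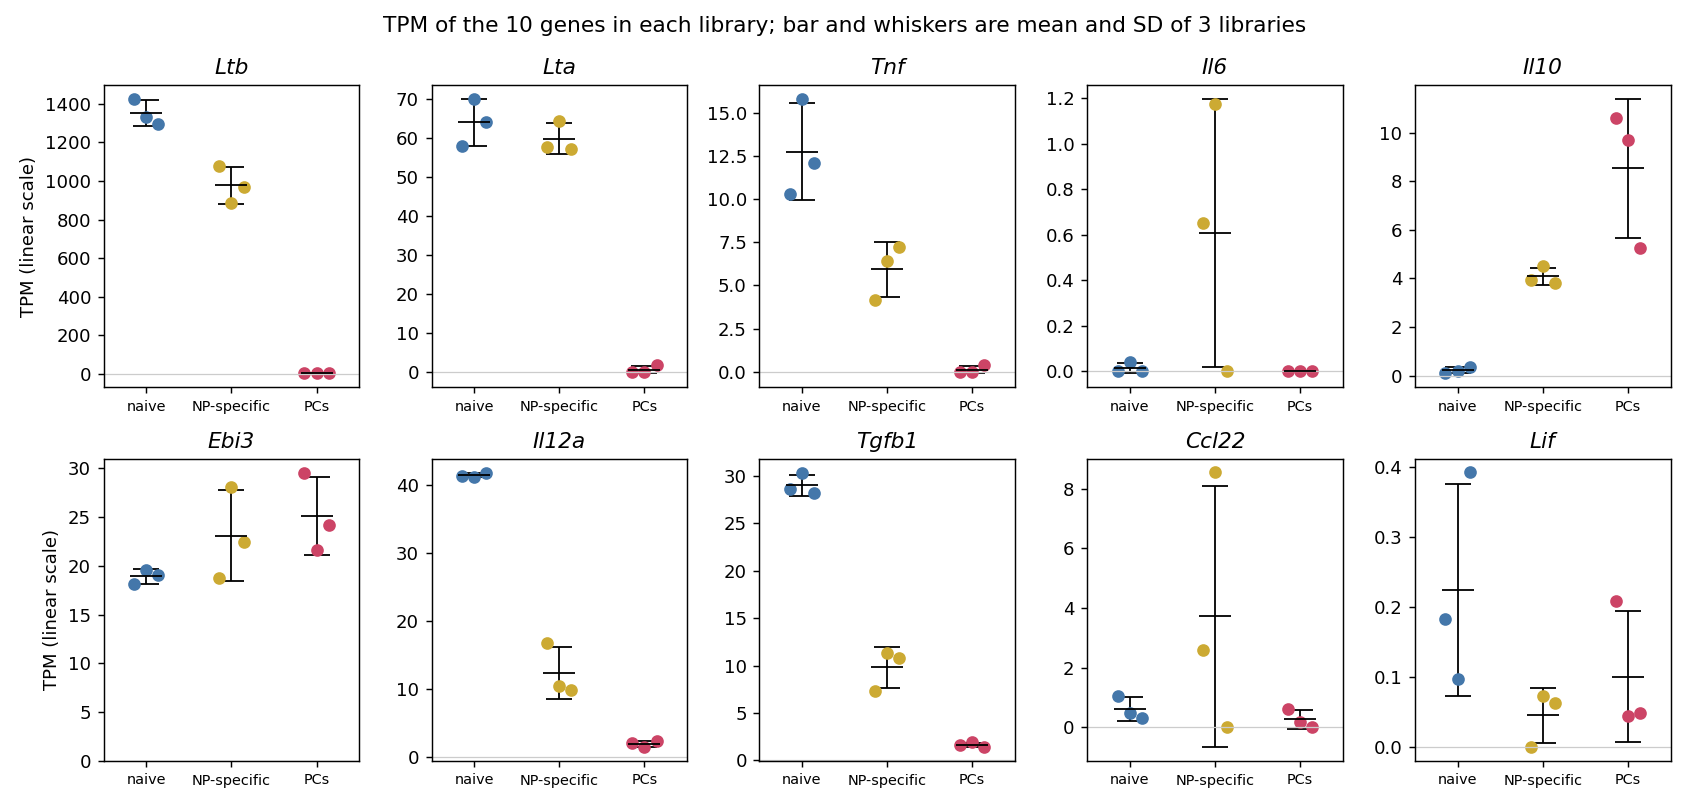
TPM (linear vertical axes that differ between panels) of the 10 genes in naive cells, NP-specific cells and PCs, with a point for each library and a bar with whiskers for the mean and SD of 3 libraries. Ltb, Lta, Tnf, Il12a and Tgfb1 sit lowest in PCs, Il10 sits highest there, and Ebi3 lies between 18.1 and 29.5 TPM in all 9 libraries.

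Lta, which encodes the soluble partner of lymphotoxin beta, did not differ detectably between the B cell populations and was far lower in PCs. It measured 57.9, 70.0 and 63.9 TPM in naive cells, 57.7, 64.2 and 57.2 TPM in NP-specific cells, and 0.174, 0.0850 and 1.77 TPM in PCs. The naive and NP-specific libraries overlapped and every PC library lay below both. The log2 difference between NP-specific and naive cells was -0.10 ± 0.16 with a 95% interval from -0.45 to 0.24 (limma adjusted p = 0.62), and it changed sign, to 0.00696, with median-of-ratios scaling. Lta fell by 6.06 ± 0.39 from naive cells to PCs (limma adjusted p = 2.42e-07) and fell by 5.96 ± 0.39 from NP-specific cells to PCs (limma adjusted p = 3.51e-07). The PC values rest on 3.92, 1.96 and 39.4 estimated reads, and the highest is in the library with hepatocyte and macrophage transcripts. Without that library the log2 changes were -6.68 and -6.58. Ltb exceeded Lta by a ratio of 21.3 ± 2.95 in naive cells and 16.5 ± 2.49 in NP-specific cells, and the ratio ranged from 3.34 to 29.4 in PCs.

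Tnf was lower at each step. Its values were 10.3, 15.8 and 12.1 TPM in naive cells, 4.15, 6.44 and 7.22 TPM in NP-specific cells, and 0, 0 and 0.373 TPM in PCs, and the populations did not overlap. The single PC value above 0 came from 10.1 estimated reads in the third library. Tnf fell by 1.06 ± 0.24 on the log2 scale from naive to NP-specific cells (limma adjusted p = 0.00576), fell by 4.44 ± 0.40 from naive cells to PCs (limma adjusted p = 3.38e-06) and fell by 3.38 ± 0.41 from NP-specific cells to PCs (limma adjusted p = 4.46e-05). The first of these calls stands just past the 2-fold limit. It was lost without naive replicate 2 or NP-specific replicate 1 and under 6 other settings, in which the change kept its sign, with values down to -0.84 and adjusted p-values from 0.00348 to 0.416 over all alternatives. Without the third PC library the changes in PCs were -4.71 and -3.65.

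The genes around the cluster did not share one pattern. Lst1, 6.0 kb from the Ltb start in GENCODE, encodes a small leukocyte protein and fell by 3.59 ± 0.42 from naive cells to PCs and fell by 4.02 ± 0.42 from NP-specific cells to PCs (limma adjusted p = 2.96e-05 and 1.38e-05). Without the third PC library these changes of Lst1 were -4.21 and -4.64. Atp6v1g2, a subunit of the vacuolar proton pump, rose by 1.55 ± 0.26 from naive to NP-specific cells and rose by 1.12 ± 0.26 from naive cells to PCs (limma adjusted p = 0.000847 and 0.00366). The second Atp6v1g2 call was lost in the table with Ig genes (0.14, limma adjusted p = 0.592), with log2(TPM + 1) (0.995) and without naive replicate 3 (0.87). Its annotated span overlaps Nfkbil1 on the other strand, so reads of the pair may not be told apart. Nfkbil1 fell by 1.53 ± 0.17 from NP-specific cells to PCs, and the RNA helicase gene Ddx39b fell by 1.01 ± 0.10 from naive cells to PCs, a call lost under 8 settings, one of which left out the third PC library (-0.95). Aif1 and Prrc2a were not called in any comparison. Of the 6 neighbours, 1 was called in NP-specific against naive cells (higher), 3 in PCs against naive cells (1 higher, 2 lower) and 2 in PCs against NP-specific cells (both lower). These are 16.7, 50.0 and 33.3% of the neighbours, near the 18.5%, 37.8% and 32.2% called among all 12892 tested genes.

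**Figure D2:**
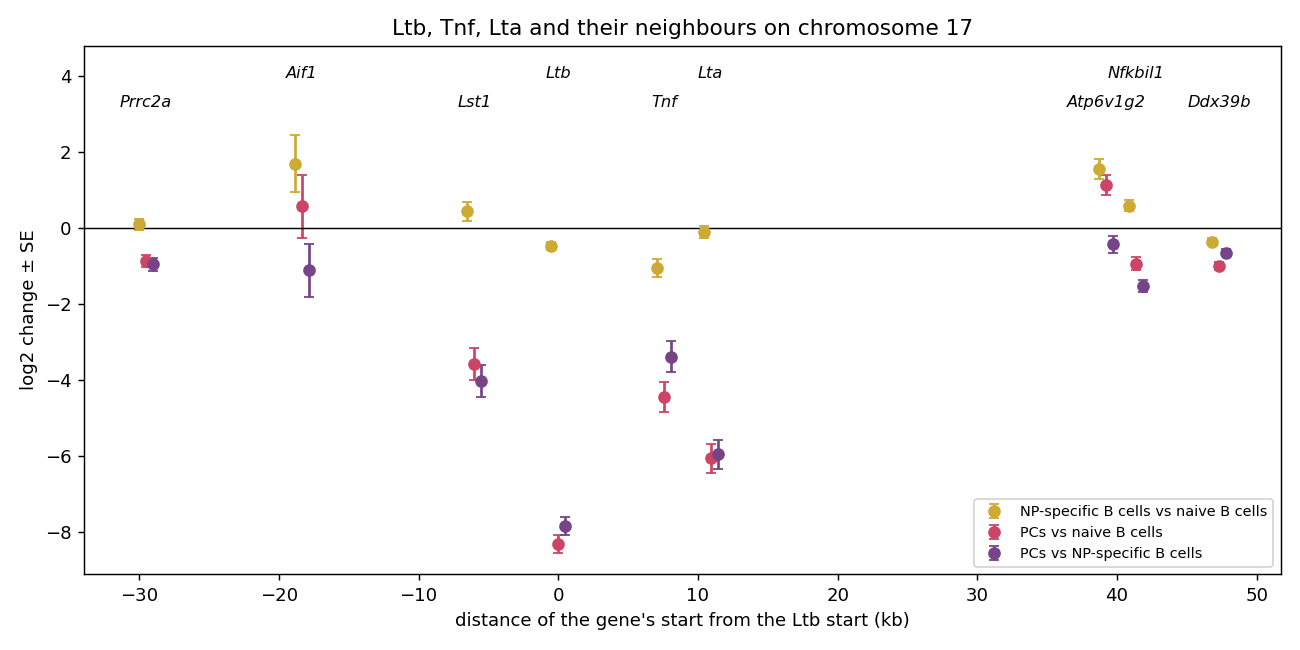
Log2 change ± SE (vertical) of Ltb, Tnf, Lta and 6 neighbours against the distance of each gene's start from the Ltb start in kb (GENCODE) (horizontal, points of one gene shifted slightly), for the 3 comparisons. Ltb at -8.32, Lta at -6.06, Tnf at -4.44 and Lst1 at -3.59 are the lowest points for PCs against naive cells, while the other 5 genes lie between -1.01 and 1.12.

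Il10, at chr1:131019845-131024974, was the only one of the 8 tested genes called higher, in both comparisons with naive cells. It was listed at 0.104, 0.199 and 0.351 TPM in naive cells, which correspond to 3.00, 6.02 and 9.11 estimated reads, at 3.94, 4.50 and 3.83 TPM in NP-specific cells, and at 10.6, 9.72 and 5.25 TPM in PCs. The 3 populations did not overlap, and the lowest PC library was the third. No naive library reached 1 TPM, so Il10 passed the filter only through NP-specific and PC libraries. Its calls as higher than in naive cells are therefore not independent of the filter. Il10 rose by 2.68 ± 0.43 from naive to NP-specific cells (limma adjusted p = 0.000689) and rose by 3.60 ± 0.41 from naive cells to PCs (limma adjusted p = 2.19e-05). Between NP-specific cells and PCs the log2 difference was 0.92 ± 0.27 (limma adjusted p = 0.0145), which is below the 2-fold limit. Without the third PC library it was 1.22 and was called (limma adjusted p = 0.000585, and 0.000585 to 0.678 over all alternatives). It was also called under 4 other settings, namely median-of-ratios scaling, TMM scaling, quantile normalization and estimated reads. In the full table, in which Ig genes took 57.5 to 62.3% of the listed TPM of PCs and 5.62 to 6.95% of the other libraries, the difference was -0.11.

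Il12a fell at each step, while Ebi3 was not called in any comparison. Il12a, at chr3:68690644-68698547, measured 41.4, 41.2 and 41.8 TPM in naive cells, 16.9, 10.5 and 9.86 TPM in NP-specific cells, and 2.17, 1.50 and 2.33 TPM in PCs, with no overlap between populations. It fell by 1.75 ± 0.18 from naive to NP-specific cells (limma adjusted p = 4.14e-05), fell by 4.09 ± 0.26 from naive cells to PCs (limma adjusted p = 2.6e-07) and fell by 2.34 ± 0.28 from NP-specific cells to PCs (limma adjusted p = 4.16e-05). Ebi3, at chr17:55952640-55957022, measured 18.1, 19.6 and 19.1 TPM in naive cells, 18.8, 28.0 and 22.5 TPM in NP-specific cells, and 29.5, 21.6 and 24.2 TPM in PCs. All PC libraries lay above all naive libraries, and NP-specific cells overlapped both. The log2 difference of Ebi3 was 0.25 ± 0.18 in NP-specific against naive cells, 0.38 ± 0.18 in PCs against naive cells and 0.13 ± 0.17 in PCs against NP-specific cells, and none was called (limma adjusted p = 0.276, 0.0856 and 0.567). The highest NP-specific value of Ebi3 was in the library with neutrophil transcripts, and without it the first difference was 0.11 (limma adjusted p = 0.655). Without the third PC library the changes in PCs against naive and NP-specific cells were -4.19 and -2.44 for Il12a and 0.40 and 0.15 for Ebi3. In the table with Ig genes the last 2 were -0.78 and -1.02, and the last was called. Ebi3 overlaps the antisense gene Gm16712, and the library method is not stated to keep the strand. The ratio of Ebi3 to Il12a, which are both per length in TPM, was 0.456 ± 0.0185 in naive cells, 2.03 ± 0.816 in NP-specific cells and 12.8 ± 2.14 in PCs.

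Il12b and Il27, which encode the other partners of these chains, and Il23a, whose product pairs with that of Il12b, were scarce. Il12b, Il23a and Il27 had group means of at most 0.909 TPM, and none passed the filter on low values. Each of the 3 had a lower group mean than Il12a and Ebi3 in every population.

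Tgfb1, at chr7:25687002-25705077, also fell at each step. Its values were 28.6, 30.3 and 28.2 TPM in naive cells, 7.36, 11.3 and 10.8 TPM in NP-specific cells, and 1.62, 1.89 and 1.41 TPM in PCs, again without overlap. It fell by 1.55 ± 0.17 from naive to NP-specific cells (limma adjusted p = 5.52e-05), fell by 3.80 ± 0.24 from naive cells to PCs (limma adjusted p = 2.22e-07) and fell by 2.25 ± 0.26 from NP-specific cells to PCs (limma adjusted p = 2.7e-05). The last 2 changes were -3.72 and -2.17 without the third PC library.

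Il6, Ccl22 and Lif were scarce. Il6 was listed at 0, 0.0394 and 0 TPM in naive cells, at 0.653, 1.18 and 0 TPM in NP-specific cells and at 0 TPM in the 3 PC libraries. The NP-specific values above 0 rest on 19.4 and 34.2 estimated reads, so 2 of 9 libraries carried more than the 3 reads used as a floor. Ccl22 was 1.06, 0.469 and 0.322 TPM in naive cells, 2.61, 8.55 and 0 TPM in NP-specific cells and 0.618, 0.196 and 0 TPM in PCs, and no comparison was called. Without NP-specific replicate 3, the library at 0, Ccl22 was called higher than in naive cells (2.30, limma adjusted p = 0.0109) and lower in PCs (-2.86, limma adjusted p = 0.00278). With a replicate block Ccl22 was also called lower in PCs than in NP-specific cells. The highest Ccl22 and Il6 values were both in the NP-specific library with neutrophil transcripts, whose part in them was not tested. Without that library the Ccl22 differences were 0.21 and -0.77, neither of them called. Lif stayed at or below 0.392 TPM in every library. Il6 and Lif did not pass the filter and were not tested.

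Over the 8 genes tested, 4 were called in NP-specific against naive cells, namely Il10 higher and Tnf, Il12a and Tgfb1 lower. In that comparison 18.5% of all 12892 tested genes were called, 8.13% higher and 10.4% lower. Cd68 and the sum of the macrophage and monocyte markers were also higher in NP-specific than naive cells, as given with the markers, and their part in the 4 calls was not tested. In PCs against naive cells 6 of 8 were called, Il10 higher and Ltb, Lta, Tnf, Il12a and Tgfb1 lower, where 37.8% of all tested genes were called, 11.4% higher and 26.3% lower. When PCs were compared with NP-specific cells, 5 of 8 were called, all lower, where 32.2% of all tested genes were called, 9.93% higher and 22.3% lower. The median log2 change of the 8 genes was -0.29, -3.94 and -2.30 in these comparisons, and that of all tested genes was -0.16, -0.47 and -0.30. Libraries did not overlap for 5, 7 and 6 of the 8 genes, against 55.9%, 69.7% and 58.2% of all tested genes. With other scalings the split of all called genes in PCs against naive cells moved from 30.2% higher to 50.2 to 56.4% higher, and the calls of Ltb, Lta, Tnf, Il12a and Tgfb1 in PCs held under all of them. Under these scalings Il10 was also called higher in PCs than in NP-specific cells, while in the table with Ig genes its difference was -0.11. The comparisons share libraries, so their counts are not independent. Il10 entered these counts only through the populations in which it was higher than in naive cells.

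**Figure D3:**
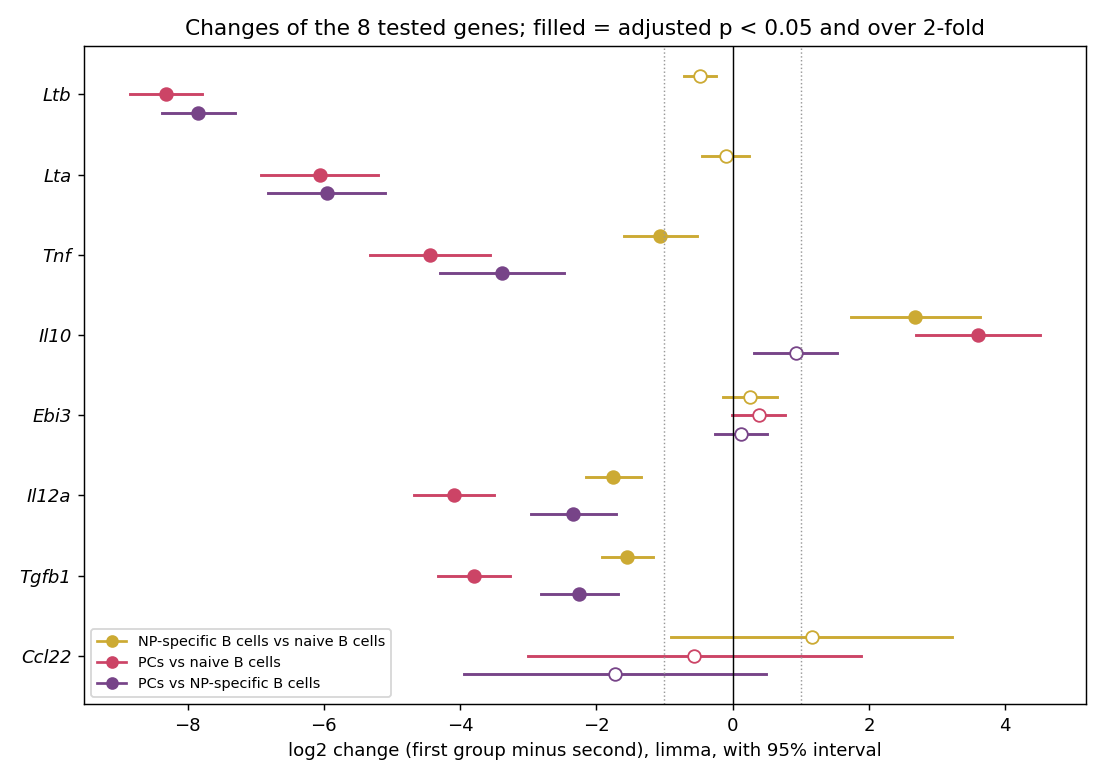
Log2 change (horizontal, first group minus second, limma) with its 95% interval for the 8 tested genes in the 3 comparisons. Filled points passed an adjusted p-value of 0.05 and a 2-fold change, shown by dotted lines, and the points run from -8.32 for Ltb to 3.60 for Il10, both in PCs against naive cells.

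The summed abundance of the 10 genes dropped from 1518 ± 61.9 TPM in naive cells and 1096 ± 86.7 TPM in NP-specific cells to 42.4 ± 5.52 TPM in PCs, and its make-up changed. Ltb supplied 90.1, 88.2 and 88.6% of the sum in naive libraries, 90.6, 86.8 and 89.7% in NP-specific libraries, and 7.19, 6.65 and 14.3% in PC libraries. The share of Ltb in PCs minus that in naive cells, and minus that in NP-specific cells, was -79.6 percentage points, and a two-sided exact permutation test gave p = 0.1 for each, the smallest value possible for 3 libraries against 3. Both differences were -82.1 percentage points without the third PC library. Between NP-specific and naive cells it differed by 0.0413 percentage points (exact permutation p = 1.0), and this difference changed sign when single libraries were left out. In PCs Ebi3 supplied 59.0 ± 1.75% of the sum and Il10 20.2 ± 6.76%, against 1.25 ± 0.0914% and 0.0146 ± 0.00881% in naive cells.

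**Figure D4:**
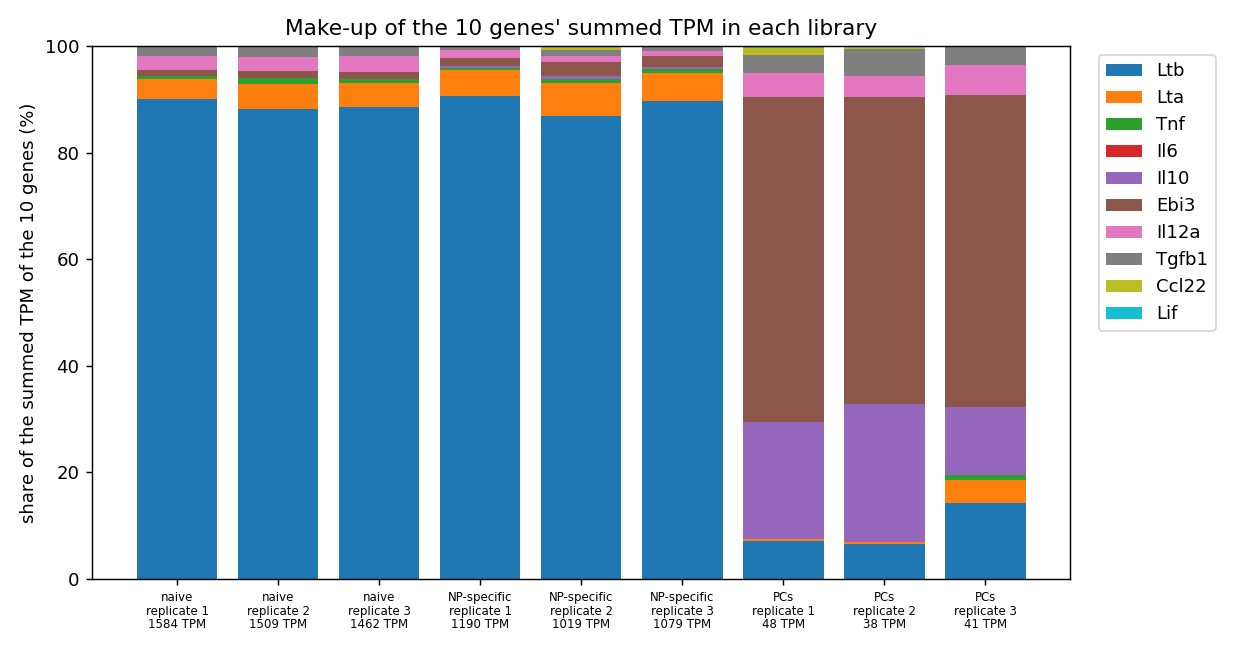
Share of the summed TPM of the 10 genes (vertical, percent) that each gene supplied in each of 9 libraries, with the sum under each bar. Ltb fills 86.8 to 90.6% of the 6 B cell bars and 6.65 to 14.3% of the 3 PC bars, where Ebi3 fills 57.6 to 61.0%.

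Some of the receptors for these ligands were also called between the populations. Among all tested genes 18.5% were called in NP-specific against naive cells, 37.8% in PCs against naive cells and 32.2% in PCs against NP-specific cells. Ltbr and Tnfrsf1a, receptors for lymphotoxin and TNF, had group means under 1 TPM and were not tested, and Tnfrsf1b, the second TNF receptor, fell by 1.77 ± 0.23 from naive cells to PCs (limma adjusted p = 5.62e-05). Both IL-10 receptor chains were lower in PCs than in naive cells. Il10ra, the ligand-binding chain, averaged 91.3, 58.5 and 1.78 TPM in naive cells, NP-specific cells and PCs and fell by 5.34 ± 0.30 from the first to the last. Il10rb fell by 1.76 ± 0.13 in the same comparison and fell by 1.22 ± 0.12 from naive to NP-specific cells, and part of its span is shared with the gene Gm21970. Il27ra averaged 45.1, 10.6 and 0.229 TPM and fell by 6.01 ± 0.63 from naive cells to PCs (limma adjusted p = 1.19e-05), although its span overlaps Palm3 on the other strand. Tgfbr2, the ligand-binding receptor of TGF-beta, averaged 117, 38.4 and 9.08 TPM and fell by 3.63 ± 0.15 from naive cells to PCs. Tgfbr1 was not called in any comparison. Il6st, which encodes gp130, went the other way and rose from 4.32 ± 0.576 TPM in naive cells to 30.9 ± 3.01 TPM in PCs, by 2.70 ± 0.21 (limma adjusted p = 1.32e-06). Il6ra fell by 1.32 ± 0.22 from NP-specific cells to PCs, a call lost under 3 scalings. Lifr and Il12rb1 were also lower in PCs, with group means of 0.477 and 0.578 TPM there, and their calls against naive cells were lost under median-of-ratios scaling, TMM and quantile normalization, and that of Lifr also with log2(TPM + 1) (-0.97) and without PC replicate 2 (-1.003, limma adjusted p = 0.0715). Il12rb2 and Ccr4 were not tested because they stayed under the filter. Without the third PC library, 34 of the 35 calls of the receptors and other listed genes picked by the naming rule in PCs against naive cells and 28 of 29 in PCs against NP-specific cells held, and those of Ddx39b and Tradd, respectively, were lost. Without the second NP-specific library 18 of 19 held in NP-specific against naive cells, where that of Tgfb3 was lost, and 28 of 29 in PCs against NP-specific cells, where that of Lifr was lost (-1.03, limma adjusted p = 0.0879). The Lifr call in PCs against NP-specific cells was lost under 8 settings in all, also without NP-specific replicate 3 (-1.10), PC replicate 1 (-1.20) or PC replicate 2 (-0.88).

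**Figure D5:**
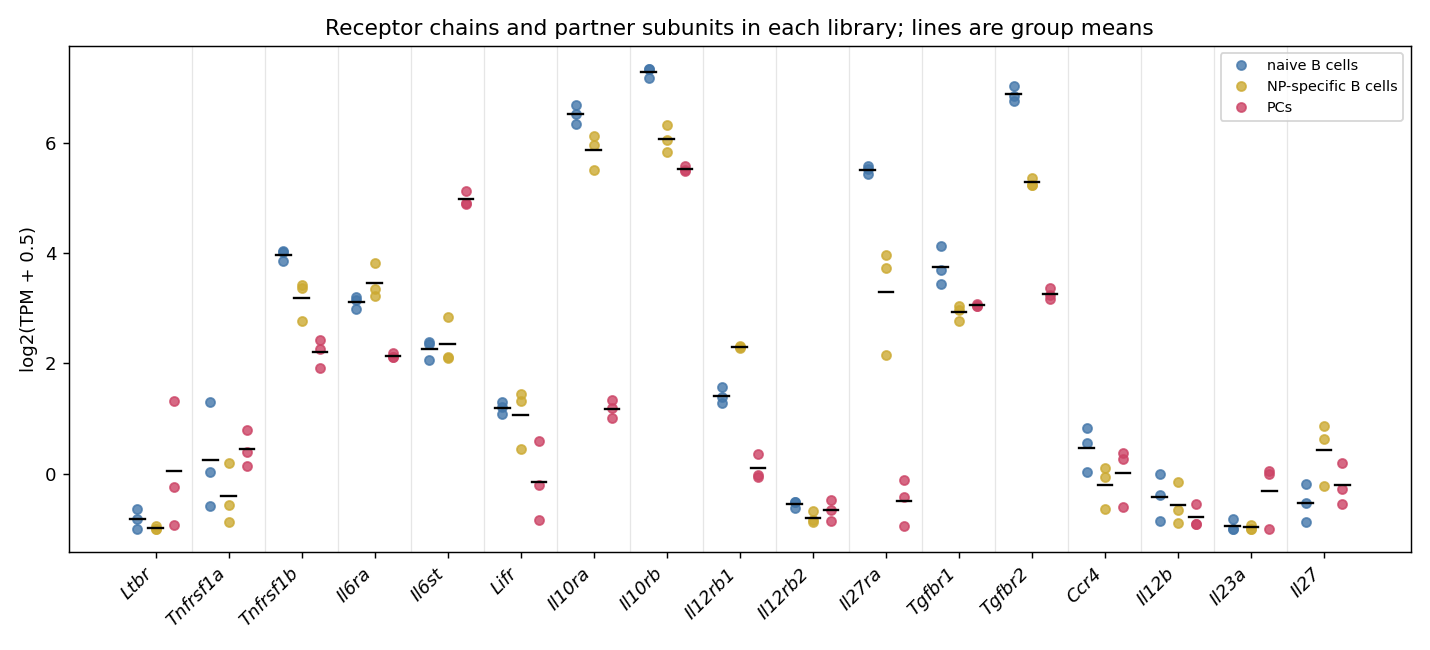
Log2(TPM + 0.5) (vertical) of 17 receptor chains and partner subunits in each library, with a line for each group mean on that scale. Il10ra, Il27ra and Tgfbr2 step down from naive cells to PCs, and Il6st is highest in PCs.

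Calls in the lists of receptors and signalling genes are read beside those over all tested genes, of which 18.5%, 37.8% and 32.2% were called in the 3 comparisons, also mostly lower. Of 15 tested genes for receptors and signalling of IL-6, IL-10, IL-12 and LIF, 5 were called in NP-specific against naive cells (all lower), 13 in PCs against naive cells (1 higher, 12 lower) and 11 in PCs against NP-specific cells (1 higher, 10 lower), with median log2 changes of -0.52, -1.54 and -1.32 beside -0.16, -0.47 and -0.30 over all genes. These are 33.3, 86.7 and 73.3% of the list. With median-of-ratios scaling 32.3% of all tested genes were called in PCs against naive cells, 56.4% of them higher. Under that scaling 1 gene of this list was called higher and 8 lower in PCs against naive cells, with a median of -1.05. Socs3, an inhibitor of cytokine signalling, fell by 3.30 ± 0.44 and Socs1 fell by 2.96 ± 0.30 from naive cells to PCs. Of 8 tested genes for LT and TNF receptors and processing, 2, 6 and 3 were called in these comparisons, all lower, with medians of -0.58, -1.38 and -0.79. With median-of-ratios scaling 2, 4 and 1 were called, all lower, beside 17.7%, 32.3% and 29.6% of all tested genes under that scaling. Rhbdf2, which helps to bring the TNF-releasing protease to the cell surface, fell by 3.95 ± 0.36 from naive cells to PCs. Of the adaptors below these receptors, Traf2 fell by 1.59 ± 0.22 and Traf3 fell by 1.74 ± 0.22 in that comparison. Of 15 tested TGF-beta genes, 3 (all lower), 7 (1 higher, 6 lower) and 8 (2 higher, 6 lower) were called, with medians of -0.22, -0.77 and -0.40. With median-of-ratios scaling the calls were 1 higher and 3 lower, 2 higher and 6 lower, and 2 higher and 4 lower. These stand beside the shares of all genes under that scaling given for the LT and TNF list. The medians were then -0.10, -0.27 and -0.022. Among these Smad2, a signal transducer, fell by 2.25 ± 0.25 and the ligand Tgfb2 rose by 2.01 ± 0.34 from naive cells to PCs, to a mean of 3.63 TPM. Nrros, which tethers latent TGF-beta, fell by 1.91 ± 0.13 there, and Ltbp1, a latency binding protein, fell by 1.24 ± 0.18 from naive to NP-specific cells.

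Most other cytokines were below the filter. The counts of calls in the next lists stand beside 18.5%, 37.8% and 32.2% of all tested genes. Of 25 listed interleukins and cytokines 8 were tested, and 1 (lower), 5 (1 higher, 4 lower) and 3 (1 higher, 2 lower) were called in the same order of comparisons, or 12.5, 62.5 and 37.5%, with medians of -0.69, -0.86 and -0.33, the last of which changed sign with median-of-ratios scaling (0.051), TMM and quantile normalization. Clcf1, a ligand of the gp130 family, averaged 45.3, 10.1 and 0.515 TPM and fell by 5.58 ± 0.30 from naive cells to PCs (limma adjusted p = 5.81e-08), with its span partly shared with AC109138.7. Il15 rose by 1.59 ± 0.43 in that comparison, from a mean of 0.374 to 2.22 TPM. No naive or NP-specific library reached 1 TPM of Il15, so it passed the filter only through PCs. Its calls as higher are therefore not independent of the filter. With the deposited log2 values the change from naive cells to PCs was larger but not called (2.83, limma adjusted p = 0.0682). Osm, another ligand of the gp130 family, fell by 2.82 ± 0.34. Of 15 other TNF superfamily ligands 3 were tested, and 1 (lower), 2 (1 higher, 1 lower) and 3 (1 higher, 2 lower) were called, with medians of -0.44, -0.81 and -1.06. Tnfsf10, the death ligand TRAIL, rose by 2.10 ± 0.27 from NP-specific cells to PCs. Its call as higher in PCs than naive cells was lost without naive replicate 1 (0.96), PC replicate 1 (0.95) or PC replicate 2 (0.93), with log2(TPM + 1) (0.88) and in the table with Ig genes (0.095), and its call as lower in NP-specific than naive cells was lost under 3 settings. The call of Eda as lower in PCs was lost under 10 settings against NP-specific cells, with NP-specific replicate 1 (-0.79), PC replicate 1 (-1.07) or PC replicate 2 (-0.90) left out among them, and with median-of-ratios scaling against naive cells (-0.99). Of 26 chemokines and CCL22 receptors 7 were tested, with 3 (1 higher, 2 lower), 2 (both lower) and 1 (lower) called, or 42.9, 28.6 and 14.3%, and medians of 0.65, 0.35 and 0.27, the last 2 of which changed sign in the table with Ig genes (-0.48 and -0.14). Ackr2, a scavenger receptor that binds CCL22, averaged 3.73 ± 0.0699, 107 ± 4.06 and 0.240 ± 0.383 TPM. It rose by 4.66 ± 0.19 from naive to NP-specific cells (limma adjusted p = 2.19e-07) and fell by 7.29 ± 0.30 from NP-specific cells to PCs (limma adjusted p = 1.19e-08). Of 12 genes for decay and stability of cytokine mRNA, 5 (1 higher, 4 lower), 6 (all lower) and 5 (1 higher, 4 lower) were called, or 41.7, 50.0 and 41.7%, with medians of -0.25, -0.999 and -0.56. Zfp36, which binds AU-rich elements in messages such as that of TNF, fell by 2.08 ± 0.25 from naive to NP-specific cells and rose by 1.80 ± 0.26 from there to PCs. The rise of Zfp36 was not called in the table with Ig genes (0.63, limma adjusted p = 0.067). Zc3h12a, an RNase acting on cytokine messages, fell by 1.91 ± 0.27 from naive to NP-specific cells and fell by 2.20 ± 0.28 from naive cells to PCs. Zfp36l1, of the Zfp36 family, fell by 2.38 ± 0.11 in PCs against naive cells. Hnrnpd, an AU-rich element binding protein, was called higher in NP-specific than naive cells (1.61 ± 0.50, limma adjusted p = 0.0239), with NP-specific replicate 1 at 208 TPM against 45.2 and 58.5. Without that library the log2 difference of Hnrnpd was 0.94 (limma adjusted p = 0.00152), under the 2-fold limit. The Hnrnpd call was also lost when any 1 naive library was left out, with log2 differences from 1.51 to 1.69 and limma adjusted p from 0.0578 to 0.0726, and with no filter on low values (limma adjusted p = 0.0604).

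The genes with the closest profiles over the 9 libraries were named by the root mean square difference of log2(TPM + 0.5) after subtraction of each gene's mean. For Ltb they were Serpinb1a, Cd22 and Ms4a4c (differences of 0.366, 0.372 and 0.424), and for Tnf Scd1, Tk2 and Slamf1 (0.257, 0.276 and 0.301). Among the closest to Lta was Hhex, at 0.328. For Il12a they were Hvcn1, B4galnt1 and Gpr146 (0.197, 0.239 and 0.281), and for Tgfb1 Zfp831, Tgfbr2 and Snn (0.189, 0.191 and 0.220). Ebi3 was closest to Gm10175, Atp5g2 and Rplp0 (0.122, 0.127 and 0.149), of which Rplp0 encodes a ribosomal protein. Cd22, an inhibitory receptor of B cells, averaged 732, 509 and 3.23 TPM, and Tgfbr2 is the receptor of the TGF-beta 1 ligand.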

How the data were processed

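RNA from 9 sorted spleen libraries was read after polyA-based cDNA synthesis and tagmentation. The authors pseudoaligned reads with kallisto (build mm10 in the submitters' processing notes) and deposited TPM per gene and log2 values made with voom, each with and without Ig genes. TPM of the table without Ig genes, scaled to the column sum, were passed to voom and limma (version 3.58.1, R 4.3.3) with 3 group means, all 9 libraries and no block, on genes with at least 1 TPM in at least 3 libraries. Benjamini-Hochberg adjustment covered all 12892 genes tested. Estimated reads were recovered from the deposited log2 values without Ig genes, in which a TPM of 0 stands for 0.5 counts. A floor of 3 reads covers counting error only. Shares were compared by exact permutation in scipy. The script was tested on simulated data. Members and lists were chosen with earlier results of these data known. All 10 members were named, with the receptors and partner subunits listed, genes from among the up to 4 called with the largest change per list and comparison, and the 3 genes closest to each member with a mean of at least 10 TPM in some population, of which some are not reported here. Alternatives were other scalings, filters, pseudocounts (0.1 and 1) and values, the table with Ig genes, a replicate block, and leaving out each library. The labels state 3 mice as replicates but not which numbers share a mouse, and the sequencer used for a given library is not given in the sources used here.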

Additional observations from a re-analysis of the deposited data

How the results depend on the processing

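Of 492 values of the 8 tested genes under alternative settings, 471 kept their direction and call, 8 lost a call, 8 gained one and 5 changed sign. With a mean of at least 10 TPM required, 2 genes were called in NP-specific against naive cells in place of 4, because Tnf and Il10 were no longer tested. The 5 changes of sign were those of Lta in NP-specific against naive cells with median-of-ratios scaling (0.00696), of Il10 in PCs against NP-specific cells in the table with Ig genes (-0.11), of Ebi3 in that table (-0.78 for PCs minus naive cells and -1.02 for PCs minus NP-specific cells), and of Ebi3 in PCs against NP-specific cells without NP-specific replicate 1 (-0.00988, in a range from -0.00988 to 0.27 over the libraries left out). The 8 lost calls were all of Tnf in NP-specific against naive cells. The gained calls were of Il10 in PCs against NP-specific cells, with values up to 1.33, and of Ccl22 in NP-specific against naive cells and in PCs against NP-specific cells, the latter also with the replicate block (-1.99, limma adjusted p = 0.0282, against 0.174 without the block). Of the values of called list genes, 1619 of 1703 kept direction and call and 84 lost the call. The cause was not tested.

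Scaling moved the background. In PCs against naive cells, 30.2% of called genes were higher in the main fit, 56.4% with median-of-ratios scaling, 53.1% with TMM and 50.2% with quantile normalization, and the median change of all genes moved from -0.47 by 0.49, 0.43 and 0.40. In the table with Ig genes it moved by -0.93 and 68.9% of tested genes were called. Without the filter 9.16%, 17.8% and 15.0% of genes were called in the 3 comparisons. In NP-specific against naive cells, 43.9% of called genes were higher, and 55.2% with median-of-ratios scaling and 54.2% with quantile normalization. In PCs against NP-specific cells, 30.8% were higher, and 53.1%, 50.5% and 49.3% with median-of-ratios scaling, TMM and quantile normalization. Leaving out 1 library gave differences in the Ltb share from -0.747 to 1.16 percentage points between NP-specific and naive cells. Same-numbered libraries did not deviate together (correlations from -0.07 to 0.07), and a replicate block gave 4, 6 and 6 called genes of the 8, and 2453, 4898 and 4238 calls over all genes beside 2388, 4870 and 4150. Not every library correlated best with its own number. The values of Il6 and Lif, and those of Tnf and Lta in PCs, rest on few reads. So do those of Il10 in naive cells (3.00, 6.02 and 9.11 estimated reads).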
